A study of Mus musculus with 36 samples.

Results

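The miRNAs described here are 10 mature miRNAs of the proximal Dlk1-Dio3 region of mouse chromosome 12, in and around the gene Rtl1. They are mmu-miR-127-3p, mmu-miR-136-5p, mmu-miR-136-3p, mmu-miR-337-3p, mmu-miR-370-3p, mmu-miR-431-5p, mmu-miR-433-3p, mmu-miR-434-3p, mmu-miR-434-5p and mmu-miR-673-5p, written from here on without the species prefix. They were chosen by their mature names and their place in the genome, with earlier results of these data known. They are 10 of the 1966 mature miRNAs in the count table. Each had a single row in that table, and all 10 were matched by name to RefSeq.

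Dlk1-Dio3 is an imprinted domain, in which the parental origin of a chromosome decides which of its genes are read. The non-coding RNAs Meg3 (also called Gtl2), the Rtl1 antisense transcript, Rian and Mirg, together with the miRNAs cut from them, are expressed from the maternal chromosome, while the protein-coding genes Dlk1, Rtl1 and Dio3 are expressed from the paternal one. Several miRNAs of the Rtl1 antisense transcript are perfectly complementary to the Rtl1 mRNA and can direct its cleavage, and Rtl1, derived from a retrotransposon, is required in the placenta. Dlk1 is known in fat as an inhibitor of adipocyte differentiation.

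The mature sequences are shown first because the 10 miRNAs are not a seed family and are told apart by their own sequences. They are RefSeq sequences (GRCm38.p6), written 5′ to 3′, and the capitals mark the seed (bases 2 to 8), the part of a miRNA that pairs first with a target.
miR-127-3p: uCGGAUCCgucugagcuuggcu
miR-434-3p: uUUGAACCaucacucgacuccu
miR-434-5p: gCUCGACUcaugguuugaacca
miR-136-3p: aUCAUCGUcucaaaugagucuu
miR-136-5p: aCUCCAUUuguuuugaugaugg
miR-431-5p: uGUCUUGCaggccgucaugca
miR-433-3p: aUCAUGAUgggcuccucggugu
miR-673-5p: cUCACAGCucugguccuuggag
miR-370-3p: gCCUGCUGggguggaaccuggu
miR-337-3p: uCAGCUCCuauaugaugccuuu
The 10 seeds were all distinct. Of these, 9 were found in no other of the 1738 mature mouse miRNAs of RefSeq, and the seed of miR-673-5p was shared with miR-6985-3p. The mature miRNAs were 21 to 22 nt long, so no correction for length was made. How evenly different sequences are captured in a library was not measured, so comparisons between miRNAs or arms are of read counts.

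The 10 miRNAs come from 8 hairpins, all on the plus strand and within 46.3 kb. In order along chromosome 12 (GRCm38.p6), miR-673-5p lies at chr12:109572004-109572025 and miR-337-3p at chr12:109585850-109585871, and GENCODE M21 has no gene other than the miRNA at either. The longer RefSeq span of Rtl1, chr12:109564900-109604418, covers both places. Within the Rtl1 coding sequence, on the opposite strand, lie miR-431-5p (chr12:109590459-109590479), miR-433-3p (chr12:109591781-109591802), miR-127-3p (chr12:109592888-109592909), miR-434-5p (chr12:109594528-109594549), miR-434-3p (chr12:109594565-109594586), miR-136-5p (chr12:109595331-109595352) and miR-136-3p (chr12:109595366-109595387). These 7 have a perfect complement in the Rtl1 transcript. miR-370-3p, at chr12:109618305-109618326, lies in an intron of the non-coding RNA Rian on the same strand. The hairpin of miR-3071 overlaps that of miR-136 on the opposite strand, and both of its arms had 0 counts in all 36 libraries.

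The hairpins of miR-434, miR-136 and miR-337 are printed because the counts below turn on which arm is found. The capitals mark the 5p and then the 3p arm, and both arms of miR-434 and of miR-136 are among the 10.
Mir434: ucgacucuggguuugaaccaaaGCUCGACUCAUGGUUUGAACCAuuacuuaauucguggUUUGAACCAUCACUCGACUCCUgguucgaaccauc
Mir136: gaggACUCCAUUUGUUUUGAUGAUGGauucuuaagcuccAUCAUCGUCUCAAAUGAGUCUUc
Mir337: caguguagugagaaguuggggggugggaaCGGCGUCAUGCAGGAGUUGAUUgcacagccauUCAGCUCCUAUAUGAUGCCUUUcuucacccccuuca

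The libraries are small RNA sequencing of total RNA from liver and from epididymal white adipose tissue (eWAT), the fat pad beside the epididymis. The mice were wild-type C57BL/6 males of the F1 generation, fed chow until 6 weeks and a defined diet for 18 weeks, and 24 weeks old. There were 3 diet groups, LF, HF and HFLF, with 6 libraries per group in liver and 6 in eWAT. The diet tags of the groups read LFD, HFD and HFLFD, but all samples carry a treatment text naming LFD alone, so it is not known from the labels whether a group is named for the mice's own diet or for that of their fathers. Liver and eWAT libraries carry the same numbers, and whether a number stands for the same mouse in both tissues is not given. The titles number the replicates and nothing else marks them as separate animals, so that the p-values reflect only how far these samples spread, which may be technical.

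Libraries held 7866583 to 18832842 counts in liver and 9066683 to 17714156 in eWAT. In liver, LF replicate 4 and HF replicate 6 stood apart with 316 and 368 mature miRNAs detected, against 540 to 633 in the other 16 liver libraries. Levels are given as CPM, counts scaled to a common library total, with totals adjusted by the trimmed mean of M values (TMM) over all 36 libraries. In eWAT, markers of germ cells and epididymis (7 of 7 detected, led by miR-34c-5p) summed to 1833 CPM in LF replicate 1 and 217 in LF replicate 4, while the remaining 16 libraries lay between 11.4 and 165. The 7 epithelial markers summed to 12349 and 16351 CPM in these 2 libraries and to 1321 to 2102 in the other 16. The hepatocyte markers (5 of 5 detected in liver), led by miR-122-5p, summed to 627160 to 1001800 CPM in liver and to 1198 to 4384 in eWAT, and those of adipocytes and smooth muscle (4 of 4 detected in eWAT), led by miR-143-3p, to 11519 to 26313 CPM in liver and 97984 to 184620 in eWAT.

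In eWAT, 2 of the 10 miRNAs, miR-434-3p and miR-127-3p, carried most of the signal. Together they made up 76.8% to 84.8% of the summed level of the 10 in each eWAT library. miR-434-3p, an antisense partner of Rtl1, was at 194 ± 37.4 CPM (SD, n = 18) and ranked 111th among mature miRNAs in eWAT. miR-127-3p, which also pairs with Rtl1 and is known as a repressor of Bcl6, was at 188 ± 33.3 CPM and ranked 112th. The difference between them was smaller than the SD of either.

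A second tier followed, with miR-434-5p at 25.9 ± 6.79, miR-136-3p at 20.8 ± 5.47, miR-431-5p at 18.0 ± 4.43 and miR-433-3p at 17.4 ± 4.28 CPM. Neighbours in this tier differed by less than their SD. miR-431-5p is known in neurons as a promoter of axon growth through Wnt signalling. The remaining 4 were low in eWAT. miR-673-5p was at 3.73 ± 1.59 CPM and miR-370-3p, which in hepatocytes is known to act on the fatty acid oxidation enzyme Cpt1a, at 2.29 ± 1.42. miR-136-5p was at 1.14 ± 0.873 CPM with counts in 16 of 18 eWAT libraries, and miR-337-3p at 0.332 ± 0.430 CPM with counts in 12 of 18. These last 4 each overlapped their neighbours within the SD. In bulk tissue, fewer cells that carry a miRNA and less of it per cell cannot be told apart.

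**Figure D1:**
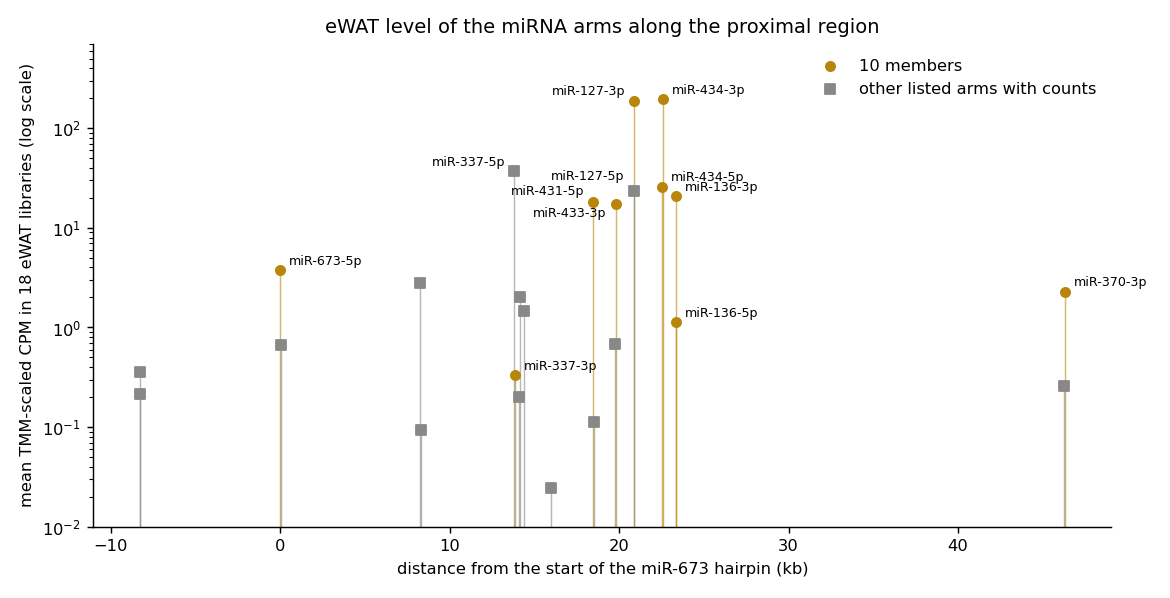
Mean TMM-scaled CPM in the 18 eWAT libraries (y axis, log scale) against distance from the start of the miR-673 hairpin in kb (x axis), for the 10 members (circles) and the other listed arms that had counts (squares). miR-127-3p (188 CPM) and miR-434-3p (194 CPM) stand above all other arms, and miR-337-5p (37.3 CPM) stands far above the member miR-337-3p (0.332 CPM) of the same hairpin.

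The arm that dominated differed between the hairpins. In the eWAT counts pooled over 18 libraries, the 3p arm made up 88.2% of miR-434 (70896 of 3p and 9466 of 5p; 95% Wilson interval 88.0% to 88.4%), 95.1% of miR-136 (94.6% to 95.5%), 88.8% of miR-127 (88.6% to 89.1%), 96.2% of miR-433 (95.7% to 96.7%) and 90.1% of miR-370 (88.0% to 91.8%). The 5p arm dominated miR-431, where 3p was 0.573% (0.418% to 0.786%), and miR-673, where it was 15.3% (13.7% to 17.2%). In miR-337 the member is the rare arm: miR-337-3p had 111 counts and miR-337-5p 13563, a 3p share of 0.812% (0.675% to 0.977%). So 7 of the 10 miRNAs are the major arm of their hairpin in eWAT, and miR-434-5p, miR-136-5p and miR-337-3p are minor arms of theirs. The intervals cover counting error only, since amplified reads with no molecular identifier need not each stand for a molecule.

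No difference between diet groups in eWAT passed the test for any of the 10 miRNAs. miR-127-3p had a lowest, median and highest level of 135, 163 and 237 CPM in LF, 174, 200 and 236 in HF, and 136.1, 195 and 210 in HFLF. miR-434-3p was at 147, 180 and 297 CPM in LF, 170, 208 and 249 in HF, and 127.1, 186 and 204 in HFLF. The groups overlapped for both. The highest LF value of each was that of LF replicate 1, a library with the high epididymal and epithelial markers given above. LF replicate 4, the other library with high epithelial markers, held the lowest LF value of miR-127-3p (135 CPM). It was at 189 CPM for miR-434-3p. The part of these markers in the levels was not tested. Without LF replicates 1 and 4 the LF mean of miR-434-3p was 170 ± 19.8 CPM (n = 4), against 195 ± 53.1 with all 6. For miR-127-3p the LF mean was 175 ± 40.7 CPM without these libraries, against 178 ± 45.6 with all 6.

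The second tier showed the same overlap. miR-434-5p ran from 14.7 to 45.3 CPM in LF, 21.0 to 29.7 in HF and 18.5 to 32.7 in HFLF. miR-136-3p ran from 11.7 to 26.6, 13.1 to 31.9 and 16.9 to 23.8 CPM in the same order. miR-431-5p ran from 10.4 to 26.8, 12.3 to 23.0 and 13.2 to 25.7 CPM. For all 3 the ranges of the groups overlapped. miR-433-3p ran from 10.4 to 23.9 CPM in LF, 12.6 to 25.4 in HF and 11.1 to 21.2 in HFLF. Among the low miRNAs, medians in LF, HF and HFLF were 3.26, 4.31 and 3.93 CPM for miR-673-5p, 2.77, 1.87 and 1.44 for miR-370-3p, and 1.31, 1.20 and 0.861 for miR-136-5p. miR-337-3p had 17 counts over the LF libraries, 59 over HF and 35 over HFLF, with a count in 3, 6 and 3 of the 6 libraries. In all 30 pairs of diet groups (10 miRNAs, 3 pairs) the ranges in eWAT overlapped. The like share over all miRNAs is not given here, so the overlap is only a description of the 10.

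Counts were tested with edgeR's quasi-likelihood test, adjusted by Benjamini-Hochberg over all miRNAs that passed its filter on low counts, with an adjusted p under 0.05 as the call. All 10 passed in eWAT. In HF against LF 0 of 10 were called, and 0% of the 638 miRNAs tested were. In HFLF against LF and in HFLF against HF the counts were again 0 of 10, and 0% of 638 in each. None of the 10 had an unadjusted p under 0.05 in any of the 3, against 49, 98 and 21 of the 638. DESeq2 called 16, 33 and 0 miRNAs and limma-voom 0, 0 and 0, and neither called any of the 10.

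The fitted log2 differences of HF minus LF were 0.17 ± 0.15 (SE) for miR-127-3p and 0.09 ± 0.15 for miR-434-3p. Over the 10 they ran from -0.10 ± 0.51 for miR-370-3p to 1.88 ± 1.32 for miR-337-3p, whose value rests on the few counts above and was 3.45 without LF replicate 3. In HFLF minus LF they ran from -0.49 ± 0.52 for miR-370-3p to 0.82 ± 1.31 for miR-337-3p. In HFLF minus HF they ran from -1.06 ± 1.26 for miR-337-3p to 0.13 ± 0.21 for miR-431-5p, with -0.21 ± 0.15 for miR-434-3p and -0.13 ± 0.15 for miR-127-3p. The median over the 10 was 0.16, 0.02 and -0.17 in the 3 comparisons, beside -0.01, -0.04 and -0.02 over all miRNAs tested, and the comparisons share groups. The values of 9 of 10 were above 0 in HF minus LF, 6 of 10 in HFLF minus LF and 1 of 10 in HFLF minus HF. Of all 638 tested, 315, 293 and 300 were. The direction of the 10 as a set was not tested. With plain library totals the median of HFLF minus LF was -0.01. Some of these signs rest on 1 library. For HF minus LF the value of miR-434-3p was -0.0207 without LF replicate 3, and that of miR-370-3p was above 0 without LF replicate 1 (0.14) or HF replicate 1, 3 or 6. For HFLF minus LF the value of miR-337-3p was -0.14 without HFLF replicate 3 and 2.40 without LF replicate 3, and for HFLF minus HF it was -1.99 without HFLF replicate 3.

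**Figure D2:**
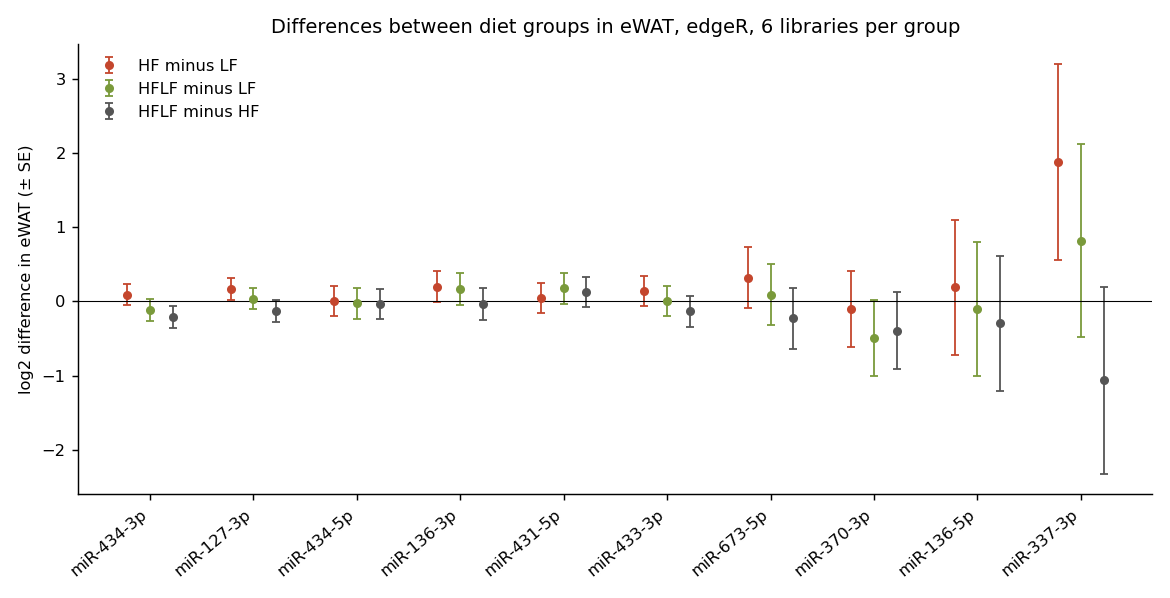
Log2 difference between diet groups in eWAT (y axis) for each of the 10 miRNAs (x axis, by falling level), as fitted by edgeR on 18 libraries, 6 per group; bars are ± SE. The differences of miR-434-3p and miR-127-3p lie within 0.21 of 0, and the SE widens to 1.32 for miR-337-3p, the miRNA with the fewest counts.

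The authors' deposited table of log2 values for eWAT holds 2 of the 10. In the authors' deposited table miR-127-3p averaged 7.12 in LF, 7.35 in HF and 7.19 in HFLF, and miR-434-3p 7.25, 7.39 and 7.16. The order of the group means was the same as in the CPM for both. The authors' deposited table for liver holds none of the 10.

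The members were lower in liver than in eWAT. The 4 that had enough counts in liver to pass the filter on low counts there, miR-127-3p, miR-434-3p, miR-434-5p and miR-136-3p, were called lower in liver in all 3 diet groups. Summed over the 10, eWAT held 333 to 649 CPM (median 473) and liver 9.40 to 37.5 CPM (median 19.0), with no overlap between the tissues. miR-434-3p was at 8.61 ± 3.54 CPM in liver (SD, n = 18) and miR-127-3p at 8.05 ± 4.02, and these were again the most abundant. miR-434-5p was at 2.14 ± 2.80 CPM, miR-136-3p at 0.888 ± 0.839, miR-433-3p at 0.715 ± 0.839 and miR-431-5p at 0.416 ± 0.713. miR-127-3p had counts in all 18 liver libraries and miR-434-3p in 17, and the others in fewer: 14 for miR-434-5p and for miR-136-3p, 10 for miR-433-3p, 9 for miR-431-5p and 5 for miR-673-5p. miR-370-3p had 4 counts in 2 liver libraries, miR-136-5p 5 counts in 1, and miR-337-3p 0 counts in all 18, where 3 counts over the summed totals would be 0.0194 CPM.

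**Figure D3:**
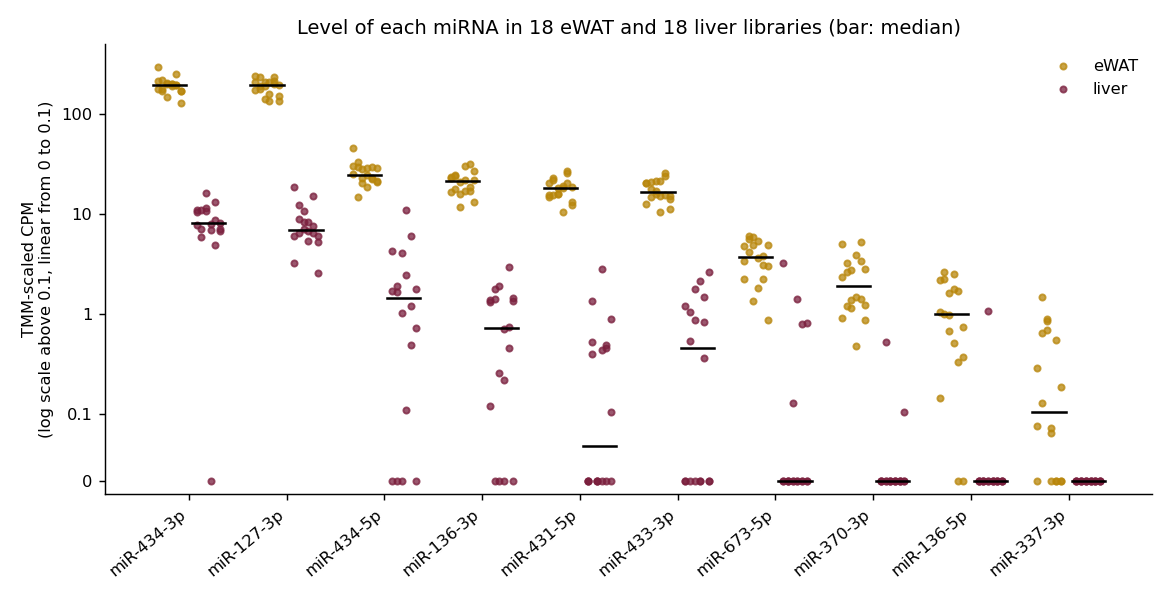
TMM-scaled CPM of each of the 10 miRNAs (x axis, by falling eWAT level) in each eWAT and liver library (points; y axis logarithmic above 0.1 and linear from 0 to 0.1); bars are medians over 18 libraries. miR-434-3p and miR-127-3p lie at or above 127.1 CPM in every eWAT library and below 19 CPM in every liver library, and 4 miRNAs have a liver median of 0.

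All 36 libraries entered 1 edgeR fit of 681 miRNAs. Of these, 478 also passed the filter with liver alone, 4 members among them, and the 4 were called lower in liver in LF, HF and HFLF, where 24.9%, 24.7% and 21.3% of the 478 were. The other 6 members, miR-431-5p, miR-433-3p, miR-673-5p, miR-370-3p, miR-136-5p and miR-337-3p, entered the fit only through their counts in eWAT, which favours a lower level in liver, and their calls are given as a description. Of these 6, 3 were called lower in LF, 6 in HF and 6 in HFLF, where 46.8%, 49.3% and 48.3% of the 203 miRNAs that did not pass with liver alone were. Over all 681 tested, 31.4%, 32% and 29.4% were called lower in liver. None of the 10 was called higher. In LF miR-673-5p (adjusted p = 0.0602), miR-136-5p (0.0933) and miR-337-3p (0.0933) missed the threshold in edgeR's test. For the first 2 this depended on a single liver library and on the tool, and for all 3 on the scaling. With all libraries kept, edgeR's test on plain library totals called all 10 members in LF, beside 62.0% of the 681. Among them were miR-673-5p (adjusted p = 0.00302 in that test), miR-136-5p (0.0111) and miR-337-3p. Without liver LF replicate 1 miR-673-5p was at -4.15 (adjusted p = 0.00266), and without liver LF replicate 3, which held the 5 liver counts of miR-136-5p, that miRNA was called (adjusted p = 0.00354). DESeq2 called 9 of 10 in LF. Every liver library was below every eWAT library for all 4 members that passed with liver alone in LF, HF and HFLF, beside 17.8%, 23.2% and 22.6% of the 478. Among the other 6 members this was so for 2, 6 and 4, beside 26.1%, 32% and 32.5% of the 203 that did not pass with liver alone. Over all 681 miRNAs it was so for 20.3%, 25.8% and 25.6%.

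The fitted log2 difference of liver minus eWAT in LF, HF and HFLF was -3.99 ± 0.28, -5.28 ± 0.29 and -4.56 ± 0.29 for miR-127-3p (adjusted p at most 1.62e-14 in edgeR's test). For miR-434-3p it was -4.44 ± 0.44, -4.66 ± 0.44 and -4.38 ± 0.44, and these 3 values differed by less than their SE. miR-434-5p gave -2.63 ± 0.68, -3.83 ± 0.72 and -5.97 ± 0.82, and miR-136-3p -5.01 ± 0.77, -4.36 ± 0.73 and -4.35 ± 0.74. miR-431-5p was at -6.44, -5.03 and -5.15, and at -7.69 in HF without liver HF replicate 4, which held 28 of its 32 counts there. miR-433-3p was at -4.01, -4.23 and -6.80, and at -7.63 in HFLF without liver HFLF replicate 2. The log2 difference of miR-673-5p was -2.25 ± 0.99 in LF, which was not called, and -3.13 ± 1.03 in HFLF, which was (edgeR, adjusted p = 0.0123) and which became -4.00 without liver HFLF replicate 4. miR-370-3p, with 4 counts in liver LF, was at -4.57 ± 0.96 there and at -6.19 without liver LF replicate 2. Without liver LF replicate 5 miR-431-5p was at -7.05 in LF, and without liver HFLF replicate 5 miR-136-3p was at -4.98 in HFLF.

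Where a liver group held 0 counts, the level in liver was set against 3 counts over the summed scaled totals of that group. This gives a bound for counting error only, and the lower 95% Poisson limit of the fold follows in brackets. On that basis the bound for miR-673-5p was 83.9-fold (68.2) lower in liver in HF. Where liver held counts, its ratio of summed counts was 4.37-fold in LF and 8.08-fold in HFLF. For miR-370-3p the bound was 46.5-fold (37.8) in HF and 31.0-fold (25.2) in HFLF. For miR-136-5p it was 23.6-fold (19.2) in HF and 17.1-fold (13.9) in HFLF. For miR-337-3p the bound was 11.4-fold (9.29) in HF. In LF it was 1.94-fold but rested on eWAT LF replicate 3, with 12 of the 17 counts, and was 0.665 without it, so that no difference is shown there. In HFLF it was 4.36-fold, and 2.23-fold without eWAT HFLF replicate 3, with 20 of the 35 counts. As a description only, since 6 of the 10 entered through eWAT, the median log2 difference over the 10, with such miRNAs at their bound, was -4.00 in LF, -4.61 in HF and -4.47 in HFLF, beside -0.59, -0.48 and -0.28 over all miRNAs tested.

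The scaling between tissues bears on the size of these differences. TMM factors were 0.575 to 0.807 in liver and 1.37 to 1.68 in eWAT, and plain library totals gave a median difference over all miRNAs of -1.87 in LF, -1.66 in HF and -1.39 in HFLF. With plain totals the calls of all miRNAs were 91.3%, 88.0% and 86.4% lower in liver, against 66.3%, 64.5% and 60.4% with TMM, and 10 of 10 members were called lower in each group, beside 62.0%, 57.1% and 54.0% of the 681 tested. miR-127-3p was at -5.26, -6.44 and -5.68 with plain totals, further from 0 than with TMM by about as much as the median of all miRNAs.

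In liver, only 4 of the 10 passed the filter on low counts when the tissue was fitted alone: miR-127-3p, miR-136-3p, miR-434-3p and miR-434-5p. The other 6 were not tested there. Of the 4, 0 were called in HF against LF, in HFLF against LF or in HFLF against HF, and 0% of the 478 miRNAs tested were called in each by edgeR's test. Unadjusted p-values under 0.05 numbered 16, 14 and 5 of 478, and DESeq2 and limma-voom called 0 in each. Plain library totals moved the median over all 478 in HFLF minus LF from 0.01 to 0.16 and brought no call.

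Of the 4, miR-127-3p and miR-434-5p had an unadjusted p under 0.05, once each. miR-127-3p had a lowest, median and highest liver level of 6.06, 10.2 and 18.8 CPM in LF, 2.58, 5.89 and 7.01 in HF, and 5.19, 7.93 and 10.6 in HFLF. The HF libraries lay mostly below those of LF, with an overlap between 6.06 and 7.01 CPM. The log2 difference of HF minus LF was -1.07 ± 0.38 (edgeR, adjusted p = 0.998), and that of HFLF minus LF was -0.53 ± 0.38. Neither passed the correction over 478 miRNAs.

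miR-434-5p was at 0, 3.11 and 11.0 CPM in liver LF (lowest, median, highest), 0, 1.68 and 4.08 in HF and 0, 0.298 and 1.03 in HFLF. Its summed counts were 171, 107 and 21. The HFLF libraries lay at or below 1.03 CPM while 5 of 6 LF libraries were above that level, and the ranges overlapped through LF replicate 3 at 0. The log2 difference was -3.55 ± 1.17 in HFLF minus LF (edgeR, adjusted p = 0.989), -1.33 ± 1.06 in HF minus LF and -2.23 ± 1.11 in HFLF minus HF, and none passed. LF replicate 4, a library with few miRNAs detected, held the highest LF level, and without it the HF minus LF value was -0.58 and the HFLF minus LF value -2.82. Without LF replicate 4 and HF replicate 6 the HF minus LF value was -0.33. Without HFLF replicate 3 the HFLF values were -4.14 against LF and -2.84 against HF.

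miR-434-3p, from the same hairpin, was at 0, 10.7 and 13.1 CPM in liver LF, 4.84, 7.26 and 16.3 in HF and 6.88, 7.96 and 11.4 in HFLF. The single 0 was LF replicate 4, 1 of the 2 liver libraries with few miRNAs detected, which held 54 counts of miR-434-5p. miR-136-3p had 26, 62 and 54 counts over the liver LF, HF and HFLF libraries. Of the miRNAs under the filter, miR-433-3p had 48, 57 and 7 counts and miR-431-5p 8, 32 and 28, of which 28 of the 32 were in HF replicate 4. miR-673-5p had 34, 0 and 23 counts, of which 27 of the 34 were in LF replicate 1.

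**Figure D4:**
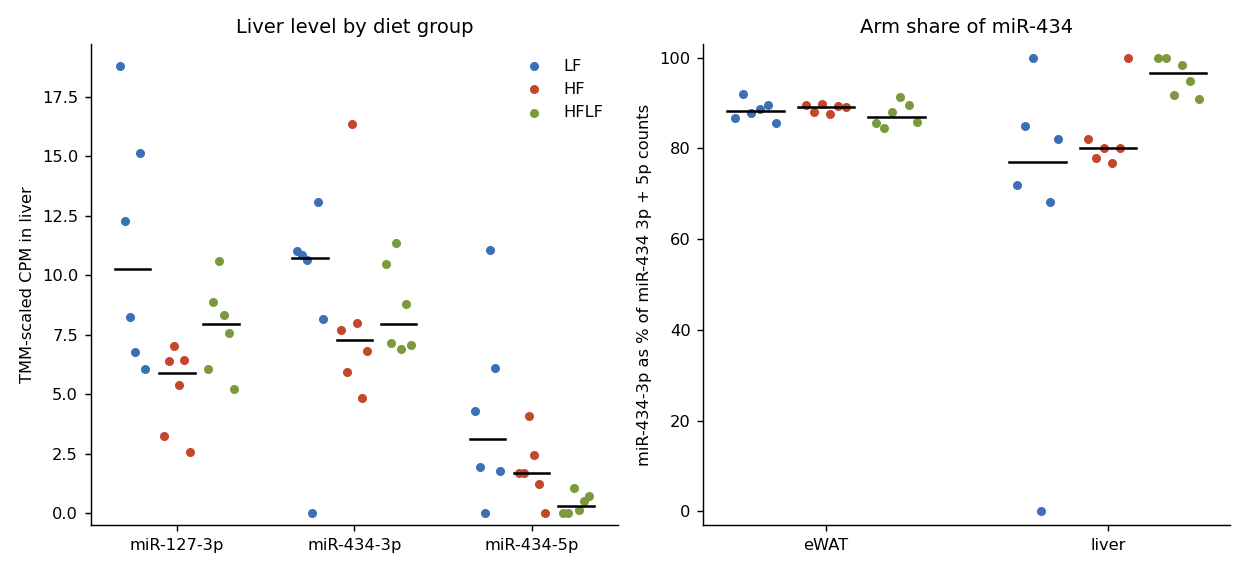
Left, TMM-scaled CPM of miR-127-3p, miR-434-3p and miR-434-5p in each liver library by diet group; right, miR-434-3p as a percentage of all miR-434 arm counts in each eWAT and liver library, in the same colours; bars are medians of 6 libraries. miR-434-5p has a median of 3.11 CPM in liver LF and 0.298 in liver HFLF, and the 3p share of the liver HFLF libraries starts at 90.8%.

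Whether the effect of a diet group differed between the tissues was tested as an interaction in the fit of 36 libraries. For HF against LF, 2 of 10 were called, against 2.5% of the 681 miRNAs tested, and 1 of the 2, miR-673-5p, is a miRNA that entered the fit only through eWAT. miR-127-3p had a difference of effects, liver minus eWAT, of -1.30 ± 0.35 (log2; adjusted p = 0.0426 in edgeR's test), from a liver level that was lower in HF than in LF and an eWAT level that was slightly higher. miR-673-5p had the same adjusted p, with 0 counts in all liver HF libraries, and no fold is given for it. Its liver LF counts came from 2 libraries, 27 of them from LF replicate 1. The call of miR-127-3p was kept when eWAT LF replicate 5, eWAT HF replicate 1 or liver LF replicate 3, 4 or 6 was left out, and lost without any 1 of the other 19 libraries, with the difference between -1.39 and -1.07 and adjusted p up to 0.137. The call of miR-673-5p was kept in 7 of 24 such fits. The other 8 (miR-434-3p, miR-434-5p, miR-136-3p, miR-136-5p, miR-431-5p, miR-433-3p, miR-370-3p and miR-337-3p) were not called, with adjusted p of 0.208 or more. limma-voom called 0 miRNAs of the 681 here and DESeq2 35, 2 of the 10 among them.

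For HFLF against LF 0 of 10 were called, against 1.91% of 681. The largest difference of effects of a miRNA with counts in every group was that of miR-434-5p, at -3.33 ± 0.97 (edgeR, adjusted p = 0.0701). It passed without liver LF replicate 3 (adjusted p = 0.0212) and without liver HFLF replicate 3 (0.0427). Without liver LF 4 and liver HF 6, the libraries with few miRNAs detected, the difference was -2.75 (0.0495), and without eWAT LF replicates 1 and 4 it was -3.60 (0.353). miR-433-3p gave -2.79 ± 1.15 (adjusted p = 0.272), and -3.69 without liver HFLF replicate 2 or -2.19 without liver LF replicate 6. miR-127-3p gave -0.58 ± 0.35 (0.573), and miR-434-5p in HF against LF -1.19 ± 0.91 (0.746). The others (miR-434-3p, miR-136-3p, miR-136-5p, miR-431-5p, miR-370-3p, miR-337-3p and miR-673-5p) were not called, with adjusted p of 0.332 or more. At an unadjusted p under 0.05 there were 3 of 10 and 80 of 681. DESeq2 called 28 of 681, 2 of the 10 among them, and limma-voom called 0 of 681.

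The balance of the 2 arms of a hairpin is read within a library and needs no scaling. It was taken as the log2 ratio of 3p to 5p counts, with 0.5 added to each, and compared by a two-sided exact permutation test of 6 against 6 libraries (924 assignments, smallest possible p 0.0022), adjusted over 12 tests by Benjamini-Hochberg. In eWAT the 3p share of miR-434 was steady at 88.4% ± 2.23 in LF, 88.9% ± 0.877 in HF and 87.4% ± 2.67 in HFLF (SD, n = 6). The log2 ratio was 2.95 ± 0.33, 2.999 ± 0.126 and 2.83 ± 0.37, and no pair of diet groups differed (exact permutation test, adjusted p 0.745 to 0.917).

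In liver the 3p share of miR-434 was wider spread. The lowest, median and highest shares were 0%, 77.0% and 100% in LF, 76.7%, 80.0% and 100% in HF, and 90.8%, 96.6% and 100% in HFLF. The shares of 0% and 100% belong to libraries in which 1 arm had no count. Liver minus eWAT, the log2 ratio differed by -1.80 ± 1.79 (SE) in LF, -0.15 ± 0.93 in HF and 2.17 ± 0.72 in HFLF, with exact permutation p of 0.463, 0.987 and 0.00649 and adjusted p of 0.745, 0.987 and 0.0779. None passed the correction. In HF the value turned on replicate 6, in which miR-434-3p had 90 counts and miR-434-5p 0: without it the difference was -1.08 ± 0.09 (exact permutation test, adjusted p = 0.026), with every remaining liver library below every eWAT library. In LF it was -2.90 without liver replicate 3 (adjusted p = 0.026) and -0.22 without liver replicate 4.

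For miR-136 the 3p share in eWAT was 94.0% ± 5.13 in LF, 95.2% ± 2.87 in HF and 95.6% ± 2.88 in HFLF (SD, n = 6). No comparison of its log2 ratio passed (exact permutation test, adjusted p 0.468 to 0.987 over 6 comparisons). In liver miR-136-5p was found in 1 library, LF replicate 3, with 5 counts and 0 of miR-136-3p, so that the liver ratios rest on 0 to 24 counts of the 3p arm.

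Within the diet groups, the levels of the more abundant members tended to vary together from library to library in eWAT. With each value taken as its deviation from the mean of its diet group (log2 CPM, 18 libraries), Pearson's r between the 6 members of at least 10 CPM ran from 0.09 to 0.80 over 15 pairs, with a median of 0.44. The closest pair was miR-433-3p with miR-127-3p (0.80), followed among these 6 by miR-433-3p with miR-431-5p (0.69) and miR-434-3p with miR-127-3p (0.64). Without eWAT LF replicates 1 and 4 the median was 0.51. The arms miR-434-3p and miR-434-5p had an r of 0.58, which was 0.20 without these 2 libraries. The points share their library and its scaling, and the values are a description.

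**Figure D5:**
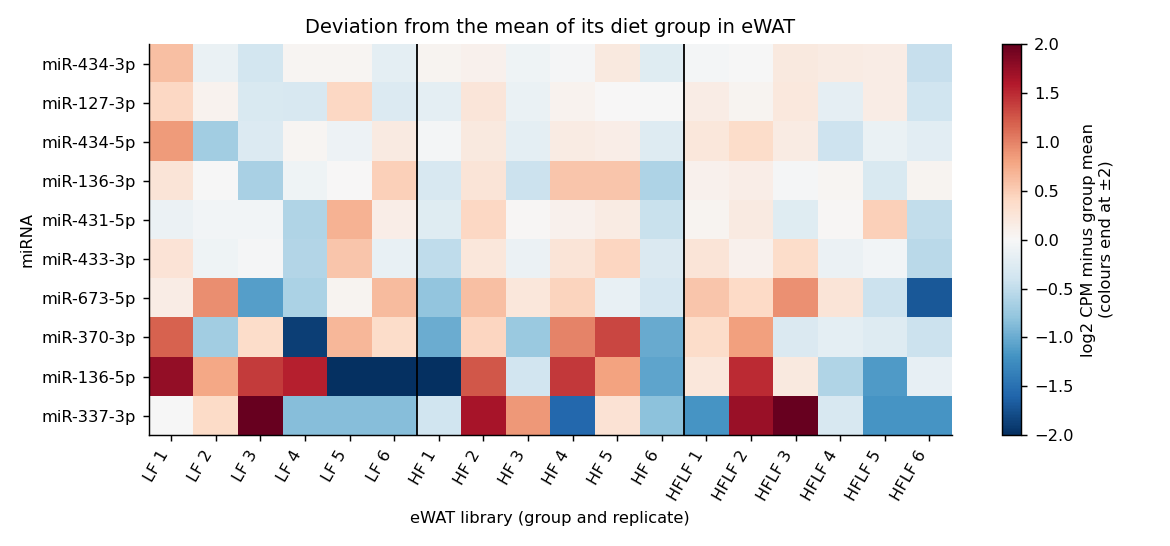
Deviation of each of the 10 miRNAs (rows, by falling level) from the mean of its diet group in each of the 18 eWAT libraries (columns), in log2 CPM, red above and blue below, with colours ending at 2. The 6 upper rows vary within narrow limits and tend to share their sign within a library, such as red in HF replicate 2 and mostly blue in HFLF replicate 6, and the 4 lower rows, of few counts, vary most.

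The summed level of the 10 was set in the same way against every other miRNA of at least 10 CPM in eWAT, again as a description over 18 libraries that share their scaling. Outside the Dlk1-Dio3 lists the highest of 266 were miR-199b-5p (r = 0.70), a miRNA of mesenchymal cells, miR-700-3p (0.67), miR-129-5p (0.64), miR-132-3p (0.63) and miR-192-5p (0.63), the last one of the hepatocyte markers. Without eWAT LF replicates 1 and 4 these were 0.53, 0.65, 0.34, 0.58 and 0.21. The median over the 266 was -0.03. The distal list, named for the cluster from miR-379 to miR-410 further along the domain, had a median r of 0.62 over 16 miRNAs, and the only listed other arms of the proximal region at this level, miR-337-5p and miR-127-5p, a median of 0.81. Of the 20 miRNAs with the highest r, 10 were from the distal list or were other arms of the proximal region, which hold 18 of the 284 compared.

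The other mature miRNAs of the proximal region were taken from a list of 19, of which 14 had a count in eWAT and 8 in liver. Its 3 most abundant in eWAT were miR-337-5p at 37.3 ± 7.69 CPM (SD, n = 18), miR-127-5p at 23.6 ± 6.89 and miR-493-5p at 2.80 ± 1.47. In liver they were at 1.61 ± 1.26, 0.744 ± 1.01 and 0.161 ± 0.331 CPM. Of the 19, 7 were tested, 6 of them through eWAT only. The 1 that passed the filter with liver alone was called lower in liver in LF, HF and HFLF. Of the 6, 5 were called lower in LF, 5 in HF and 6 in HFLF, as a description. Of all 203 miRNAs that did not pass with liver alone, 46.8%, 49.3% and 48.3% were. Of the 7, 0 were called between diet groups in eWAT in any of the 3 comparisons, with medians of 0.06, 0.19 and 0.20 (log2).

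The distal list of 78 also holds miR-3072, which lies beyond miR-410, and miR-496b, which RefSeq places on chromosome 19 and which had 0 counts in all 36 libraries. It summed to 770 to 1410 CPM in eWAT, above the 10 members in summed level, and to 39.8 to 252 CPM in liver. Its 3 most abundant in eWAT were miR-379-5p (340 ± 71.6 CPM), miR-541-5p (179 ± 37.7) and miR-411-5p (128 ± 27.3), with 20.8 ± 15.99, 18.7 ± 13.2 and 8.59 ± 6.55 CPM in liver. Of the 16 that passed the filter with liver alone, 14 were called lower in liver in LF, 16 in HF and 15 in HFLF, and of the 30 that entered only through eWAT 23, 25 and 26 were, beside the shares of all miRNAs given above. Of the 46 of 78 that were tested, 0 were called between diet groups in eWAT. Their median difference, liver minus eWAT with bounds, was -2.94, -4.05 and -3.59. For HF against LF, edgeR's test called 4 of the 46 for an effect differing between the tissues, beside 2.5% of the 681 tested. All 4 had the lower effect in liver. limma-voom called 0 of the 681, and 30 of the 46 entered the fit only through eWAT. For HFLF against LF 0 of the 46 were called, beside 1.91% of the 681.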

How the data were processed

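Small RNA libraries of 18 liver and 18 eWAT samples were read from the deposited tables. Per the submitters' processing notes, cutadapt and Bowtie were used with GRCm38.p6, with versions and settings not given in the sources used here. Raw read counts were deposited by the authors as 1 line per mature miRNA and precursor (2118 lines, 1966 mature names), and the line with the highest total was kept for a name. The authors' log2 tables hold 180 miRNAs in 18 eWAT libraries and 171 in 16 liver libraries. Column letters were read as tissue (L liver, W eWAT) and group (C LF, H HF, R HFLF) from their abbreviations.

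Counts were fitted in R 4.3.3 with edgeR 4.0.16 (TMM factors, filterByExpr with a minimum count of 10 and total of 15, robust quasi-likelihood test, Benjamini-Hochberg), per tissue and over all 36 libraries. No covariate was used. Alternatives were DESeq2 1.42.0, voom in limma 3.58.1, other scaling, no filter, summed lines, a replicate block, and libraries left out. On simulated counts for HF against LF, 100 miRNAs were changed 2-fold and another 100 were changed 4-fold at once. Of those changed 2-fold, 50% were called in eWAT (638 tested) and 34% in liver (478 tested). For 4-fold changes it was 76% and 66%. So many true changes make the adjusted threshold easier to pass than where few miRNAs differ. The shares are also taken over all levels, so they do not give the power for the members here. SE is the size of the log2 difference divided by the root of F. A miRNA at 0 in a group is given no fitted fold but a bound from 3 counts over the group's summed totals. Intervals for shares are 95% Wilson intervals. Over 90 pairs of replicates, chi-square divided by its degrees of freedom was at least 72.1, so no library was counted as a repeat of another.

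All 10 members are named in each comparison, those under the filter in liver by their counts. Of other miRNAs, values are given for the 3 most abundant in eWAT of the other proximal and of the distal list, the 5 outside both lists most like the members' sum, and marker sums. The members and lists were chosen with earlier results of these data known.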

Additional observations from a re-analysis of the deposited data

Results flagged for a closer look

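In 4 of the member levels a library lay apart from the other 5 of its group by Dixon's test at the 95% level, out of 38 groups tested. Chance flags about 1 in 20 groups. miR-434-3p in eWAT LF replicate 1 was at 297 CPM, against 147 to 195 in the others, and this is the library with 1833 CPM of germ cell and epididymis markers. miR-434-3p in eWAT HFLF replicate 6 was at 127.1 CPM, against 179 to 204. In liver HF replicate 3 it was at 16.3 CPM, against 4.84 to 8.01. miR-136-5p in eWAT HFLF replicate 2 was at 2.60 CPM, against 0.328 to 1.05.

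The effect of HF against LF differed between the tissues for miR-127-3p (adjusted p = 0.0426 in edgeR's test, log2 difference of effects -1.30) and for miR-673-5p (adjusted p = 0.0426, with 0 counts in the liver HF libraries). Neither call was made by limma-voom.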

How the results depend on the processing

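The count of members called was 0 in all 6 comparisons of diet groups within a tissue under each setting run. Lower in liver, it was 7 to 10 in LF, 10 in HF and 9 to 10 in HFLF. This is a description, since 6 of the 10 entered the main fit only through eWAT. Of all 681 miRNAs, 31.4%, 32.0% and 29.4% were called lower with TMM, and 62.0%, 57.1% and 54.0% with plain totals. For the HF effect between tissues, 2 became 1 with plain totals, with summed lines and with plain totals without miR-122-5p, and 0 with no filter, limma-voom, the replicate block and without eWAT LF replicates 1 and 4; leaving out 1 library gave 0 to 2. For the HFLF effect, 0 became 1 with RLE factors and without liver LF 4 and HF 6, 2 with DESeq2, and 0 to 1 with 1 library left out. Same-numbered libraries showed no steady likeness (r from -0.408 to 0.527, over 0.1 in at most 3 of 6 pairs). Between liver and eWAT, where a number could stand for the same mouse, r ran from -0.195 to 0.159. Weak correlation between different tissues cannot tell whether they came from the same animals. The replicate block gave miR-127-3p an HF effect difference of -1.29 (adjusted p 0.124), which is not a call, and changed no other count by over 1.5 times.

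Without liver LF 4, liver HF 6, eWAT LF 1 and eWAT LF 4 together, the arm ratio of miR-434, liver minus eWAT, was -1.08 in HF (adjusted p 0.026) and 2.17 in HFLF, where none of these libraries belongs and the adjusted p moved from 0.0779 to 0.039 only through the other tests of the family. Its HF minus LF value in eWAT was -0.0134, and miR-136 in HF 0.0281. With 1 library left out miR-434 ran from -2.90 to -0.22 in LF, from -1.08 to 0.0789 in HF, and from -0.0289 to 0.16 for eWAT HF minus LF. miR-136 ran from -1.01 to 0.0281 in HF, from -1.47 to 0.0091 for eWAT HFLF minus LF and from -0.15 to 0.48 for HFLF minus HF. In eWAT, miR-370-3p ran from -0.46 to 0.14 and miR-434-3p from -0.0207 to 0.19 for HF minus LF, and miR-337-3p from -0.14 to 2.40 for HFLF minus LF. Over 42 diet differences, 116 of 879 refits changed sign, none with a call. limma on the authors' deposited log2 table, an alternative chosen after seeing the data, gave HF minus LF in eWAT as 0.22 for miR-127-3p and 0.15 for miR-434-3p (adjusted p 0.585 and 0.679). Members under about 10 CPM rest on few counts, which limits what can be seen.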
